A study of Mus musculus with 18 samples.

Results

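Neutrophils that had not gained CD101 were compared with those that had, both sorted from the same kind of lung: that of mice with a disrupted Cybb, a model of chronic granulomatous disease (CGD), 24 hours after zymosan. The comparison set the 3 CGD zymosan CD101neg libraries against the 3 CGD zymosan CD101pos libraries. These 6 libraries were chosen by genotype, treatment and sort alone, from 18 RNA sequencing libraries in the study. The other 12 libraries were WT zymosan cells of both sorts and naive CD101pos cells of both genotypes, and they shared the estimate of spread. The naive cells came from mice aged 12 weeks, against 13 weeks in the zymosan groups. The 6 WT zymosan libraries were also compared by sort, to test whether the difference between subsets differed between genotypes.

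Neutrophils leave the bone marrow as mature cells, but inflammation draws younger ones into the blood and tissues. In mice CD101 appears on the surface late in maturation, after the granule proteins have been made in sequence and cell division has stopped. The phagocyte NADPH oxidase makes superoxide at the phagosome, and Cybb encodes gp91phox, the subunit that passes the electrons. Without it neutrophils cannot mount the oxidative burst, and patients with CGD have infections and excess inflammation. Zymosan is a preparation of yeast cell wall, recognised by Dectin-1 and Toll-like receptor 2.

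All 6 libraries came from female C57BL/6 mice aged 13 weeks that carried the Cybb knockout and had received 20 µg of zymosan into the nose. CGD CD101neg cells, which the labels call immature, and CGD CD101pos cells, which they call mature, were live CD45+ CD11b+ Ly6G+ cells of enzyme-digested lungs. The WT zymosan groups, CD101neg and CD101pos, matched them in strain, sex, age, dose and time. Each group held 3 libraries. Nothing in the sources used here says that the replicates of a group came from separate animals, so the p-values reflect how much these samples vary, which may be technical. Zymosan had been given to every mouse compared here, so none of these comparisons sets treated against untreated mice.

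Libraries of CGD CD101neg cells held 54.5 to 64.0 M reads in genes and those of CGD CD101pos cells 60.1 to 67.9 M. Correlations across genes were 0.962 to 0.973 among CGD CD101neg replicates, 0.964 to 0.981 among CGD CD101pos replicates and 0.949 to 0.966 between the sorts. Levels are CPM, reads scaled to library size (per M) with TMM factors, and values of 3 libraries are in the order of replicates 1, 2 and 3. Reads of mitochondrially encoded genes made up 0.316% to 0.359% of CGD CD101neg libraries and 0.33% to 0.396% of CGD CD101pos libraries. Cybb (ENSMUSG00000015340) carried 49.8, 40.5 and 45.0 CPM in CGD CD101neg cells and 34.6, 29.6 and 33.8 CPM in CGD CD101pos cells. WT cells held 254, 261 and 274 CPM (CD101neg) and 187, 126 and 205 CPM (CD101pos), so that every CGD library was below every WT library. Transcript of Cd101 (ENSMUSG00000086564) was at 54.1, 82.0 and 47.3 CPM in CGD CD101neg cells, against 95.9, 106 and 112 CPM in CGD CD101pos cells. The sorts did not overlap, and Cd101 fell by 0.77 ± 0.22 (SE) on the log2 scale (adjusted p = 0.0442). That call was lost without CD101neg replicate 1 or 3 or CD101pos replicate 2 or 3 (largest adjusted p = 0.183) and, at an adjusted p of 0.0558, when only the 6 libraries were fitted. It held with the replicate number as a block (adjusted p = 0.0123). WT cells held 159, 185 and 156 CPM of Cd101 (CD101neg) and 451, 322 and 436 CPM (CD101pos). Every CGD CD101pos library was thus below every WT CD101neg library. None of the 12 neutrophil markers passed the edgeR test in either direction (0 higher and 1 lower at an unadjusted p under 0.05, and 0 by DESeq2). With the replicate block 1 was lower, Csf3r, the G-CSF receptor (-0.56 ± 0.25, adjusted p = 0.0194 with the block and 0.182 without). Their summed level was 53794 to 113698 CPM in CGD CD101neg and 37362 to 74857 CPM in CGD CD101pos libraries.

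CGD CD101neg cells carried more transcript of osteopontin, of both A2 adenosine receptors, of G-CSF and of several regulators of NF-kB and Toll-like receptor signalling. They carried less of 11 of 17 alveolar macrophage and 10 of 17 monocyte and interstitial macrophage markers, of 9 of 32 cell cycle genes, and of both metallothioneins. Of 16575 genes tested, 1218 (7.35%) passed an adjusted p under 0.05 in edgeR's quasi-likelihood test with Benjamini-Hochberg adjustment. Of these, 542 (3.27%) were higher and 676 (4.08%) were lower in CGD CD101neg cells. In 1191 of the 1218 the 3 libraries of each sort did not overlap, while over all genes tested 14.5% had every CD101neg library above every CD101pos library and 14.4% had every one below. The median log2 fold change of all genes was -0.02.

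Same-numbered libraries deviated together, and with the number as a block 2758 genes passed (16.6%), 1339 higher (8.08%) and 1419 lower (8.56%), 1214 of the 1218 among them. Leaving out 1 library gave 321 calls without CD101neg replicate 2, 367 without CD101neg replicate 3, 411 without CD101pos replicate 2 and 439 without CD101pos replicate 3. Without CD101neg replicate 1 there were 1185 calls, and without CD101pos replicate 1 there were 907, of which 246 were higher. TMM factors were 0.702, 0.768 and 0.809 in CGD CD101neg libraries and 0.805, 0.957 and 1.09 in CGD CD101pos libraries. Scaling by library size alone, without these factors, moved the median of all genes to -0.34 and the split to 82 higher and 1163 lower. Changes under that scaling are therefore set against -0.34. None of the 1218 genes changed direction under any setting run. The scatter of fold change against adjusted p shows both sides of the comparison.

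**Figure D1:**
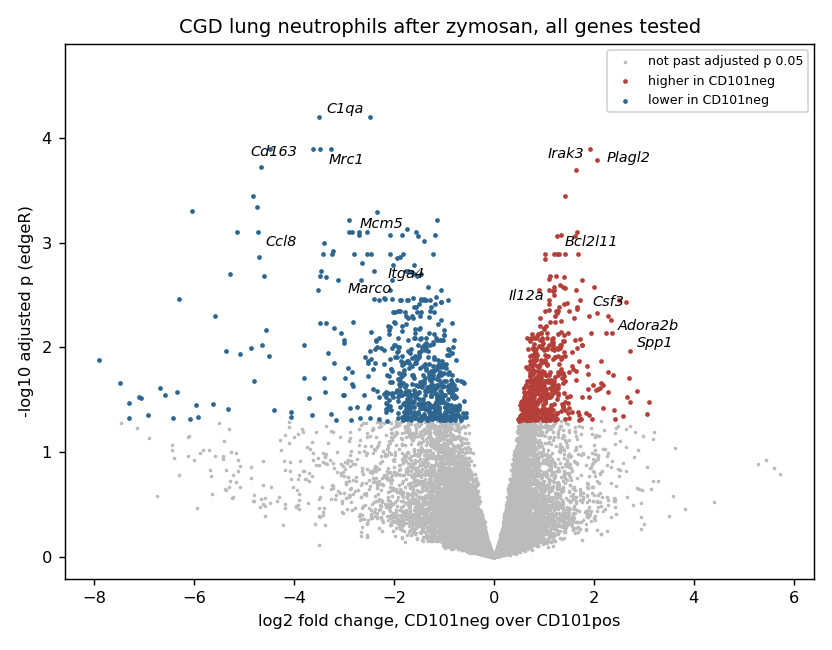
Each point is 1 of the 16575 genes tested, with the log2 fold change of CGD CD101neg over CGD CD101pos cells on the x axis and minus log10 of the adjusted p (edgeR) on the y axis. The 542 higher genes (red) and 676 lower genes (blue) passed an adjusted p of 0.05. The macrophage genes C1qa, Cd163 and Mrc1 and the chemokine gene Ccl8 lie farther from 0 than Spp1 and Adora2b on the right.

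Spp1 (ENSMUSG00000029304), which encodes the secreted matrix protein and cytokine osteopontin, rose most of the named genes. It was at 4962, 9486 and 12271 CPM in CGD CD101neg cells, against 1045, 1318 and 1700 CPM in CGD CD101pos cells. The lowest CD101neg library was well above the highest CD101pos library. Sorts that do not overlap were required of the 12 largest changes in each direction, so for those genes this is no separate support. The fitted difference between the groups was 6.58-fold (log2 2.72 ± 0.58, adjusted p = 0.0107). The call missed the threshold narrowly without CD101pos replicate 2 (adjusted p = 0.0535).

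Adora2b and Adora2a, genes of receptors for extracellular adenosine that stand on no list used here, passed the test as well. Adora2b (ENSMUSG00000018500), the low-affinity adenosine receptor, was at 119, 225 and 244 CPM in CGD CD101neg cells and at 23.4, 42.1 and 54.8 CPM in CGD CD101pos cells. Its log2 fold change was 2.29 ± 0.43 (adjusted p = 0.00496). Both groups were widely apart, with replicate 1 the lowest in each. Adora2a, its high-affinity relative, was at 7.54, 13.9 and 15.3 CPM in CD101neg and 1.63, 2.63 and 4.18 CPM in CD101pos cells (log2 2.12 ± 0.53, adjusted p = 0.0244). This call was lost without CD101neg replicate 2 or 3 or CD101pos replicate 1 or 2 (largest adjusted p = 0.0942), with library size scaling (0.0752) and without the low-count filter (0.0931).

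Genes of several further functions were higher in every CGD CD101neg library. Dock10 (ENSMUSG00000038608), an exchange factor for small GTPases, had 61.8, 115 and 121 CPM in CGD CD101neg cells and 13.1, 21.7 and 23.2 CPM in CGD CD101pos cells (log2 2.36 ± 0.47, adjusted p = 0.00734). Plagl2 (ENSMUSG00000051413), a zinc finger transcription factor, had 46.9, 77.0 and 83.2 CPM in CD101neg and 13.2, 17.2 and 18.8 CPM in CD101pos cells (log2 2.07 ± 0.24, adjusted p = 0.000163). Slc44a1 (ENSMUSG00000028412), a choline transporter, had 39.9, 77.9 and 77.9 CPM in CD101neg and 21.7, 22.8 and 18.1 CPM in CD101pos cells (log2 1.64 ± 0.28, adjusted p = 0.00284). For Dock10, Plagl2 and Slc44a1 the lowest CD101neg library was CD101neg replicate 1, and it still lay above every CD101pos library. Hspa4l, of the Hsp110 chaperone family, had 138, 155 and 148 CPM in CGD CD101neg cells, against 57.6, 60.3 and 48.1 CPM in CGD CD101pos cells (log2 1.41 ± 0.23, adjusted p = 0.00213). Tsc22d4 had 143, 217 and 231 CPM in CGD CD101neg and 87.9, 68.5 and 101 CPM in CGD CD101pos cells (log2 1.20 ± 0.21, adjusted p = 0.00318).

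The largest increases also held Pdcd1lg2, which encodes the PD-1 ligand PD-L2, at 36.6, 54.5 and 58.6 CPM in CGD CD101neg and 13.0, 9.69 and 11.1 CPM in CGD CD101pos cells (log2 2.15 ± 0.48, adjusted p = 0.0136). Pdzk1ip1 (log2 2.67), the amino acid and betaine transporter gene Slc6a12 (2.40), the sugar phosphate transporter gene Slc37a2 (2.29), Pou2f2 (2.19, the transcription factor Oct-2), Sh2d5 (2.14) and the secretory kinase gene Fam20c (2.09) were also among the 12 genes with the largest increases. Their adjusted p values were 0.0136 to 0.0396, and each of these 7 calls was lost without CD101neg replicate 2 or 3 or CD101pos replicate 2 or 3, the calls other than that of Pdcd1lg2 also without CD101pos replicate 1 (largest adjusted p 0.0663 to 0.118). They were also lost without the low-count filter (largest adjusted p = 0.144, Slc6a12) and, except Pdcd1lg2, with library size scaling (largest 0.0933, Slc6a12). Of 49 named genes that rose, 15 stayed past the threshold with any 1 CGD library left out, and 13 under every setting run. Among the 13 were Adora2b, Bcl2l11, Csf3, Dock10, Hspa4l, Il12a, Irak3, Plagl2, Ptger2, Slc25a37, Slc44a1 and Tsc22d4.

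**Figure D2:**
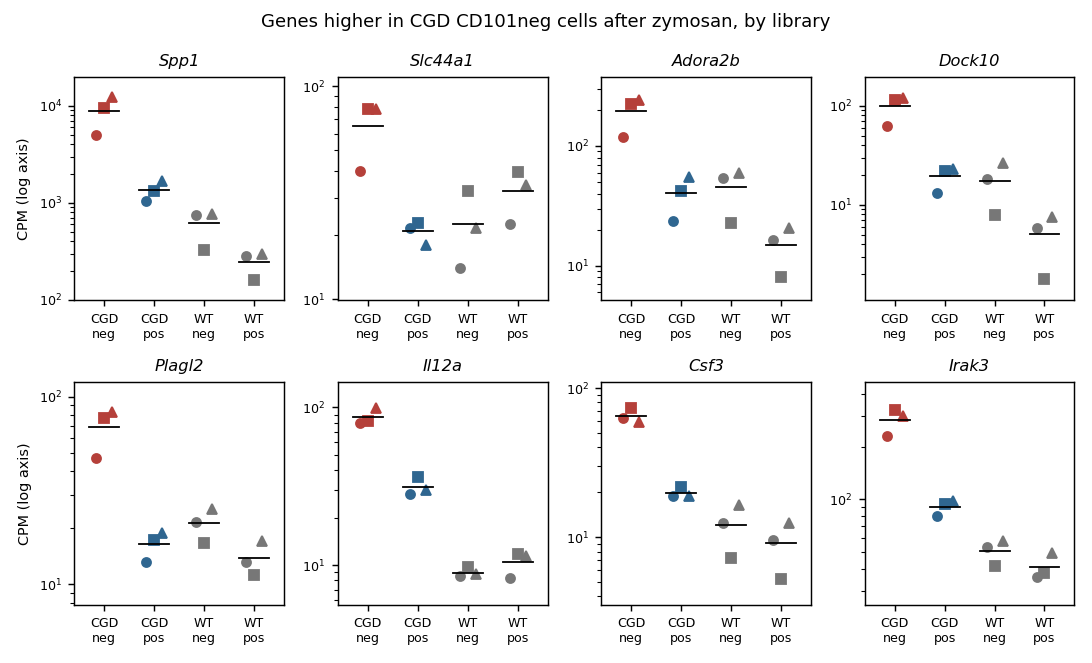
CPM (log axis) of 8 genes that rose, in the 3 libraries of each zymosan group from CGD CD101neg on the left to WT CD101pos on the right; circles, squares and triangles are replicates 1, 2 and 3, and bars are means. For each gene the 3 CGD CD101neg libraries lie above all CGD CD101pos libraries, which was required for Spp1, Adora2b and Dock10 to be named. For Il12a WT cells of both sorts lie between 8.25 and 11.8 CPM.

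Among genes of the NF-kB pathway, 9 of 32 tested rose and 0 fell (percent called over all genes 3.27% higher and 4.08% lower). Counts of the lists that follow are to be set against the same shares. The 9 were Tnip1, Rel, Cflar, Nfkb2, Nfkbib, Relb, Sod2, Nfkbie and Traf1, and 10 were higher at an unadjusted p under 0.05, 9 by DESeq2 and 11 with the replicate block. None was lower at an unadjusted p under 0.05 or by DESeq2. The median of the list was 0.40, against -0.02 for all genes, and 30 of 32 estimates were positive. Scaled by library size alone the median was 0.09, against -0.34 for all genes, and 0 of the 9 passed. Between 1 and 8 members passed with 1 library left out: 1 without CD101neg replicate 3, 2 each without CD101neg replicate 2, CD101pos replicate 1 or CD101pos replicate 2, and 6 without CD101pos replicate 3.

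Tnip1 (ENSMUSG00000020400) encodes ABIN-1, which restrains NF-kB activation. It was at 343, 477 and 496 CPM in CGD CD101neg cells, against 133, 178 and 205 CPM in CGD CD101pos cells (log2 1.35 ± 0.28, adjusted p = 0.0094). Rel, the NF-kB subunit c-Rel, had 77.4, 83.7 and 96.5 CPM in CD101neg cells and 44.0, 39.3 and 43.7 CPM in CD101pos cells (log2 1.02 ± 0.22, adjusted p = 0.0117). Nfkb2, the precursor of the p52 subunit of the non-canonical pathway, had 98.4, 153 and 168 CPM in CD101neg and 57.8, 61.9 and 80.4 CPM in CD101pos cells (log2 1.07 ± 0.24, adjusted p = 0.0145). No library of 1 sort reached into the other for Tnip1, Rel or Nfkb2. Relb, the partner of p52, had a log2 fold change of 1.16 ± 0.30 (adjusted p = 0.0262). With 1 library left out, the call of Tnip1 held (largest adjusted p = 0.0455), that of Rel was lost without CD101neg replicate 3 or CD101pos replicate 2 (0.0606), and those of Nfkb2 and Relb were lost without CD101neg replicate 2 or 3 or CD101pos replicate 1 or 2 (0.0759 and 0.121). The canonical subunit genes Nfkb1 (0.30 ± 0.17) and Rela (0.36 ± 0.18) and the inhibitor gene Nfkbia (0.25 ± 0.24) did not pass, at adjusted p = 0.315, 0.233 and 0.579, and Rela passed with the replicate block (0.0384).

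The 250 bases before the start of 3 of these genes are shown because the list is defined by NF-kB, whose dimers bind the kappaB consensus. All 3 are among the genes of the list with a match. Cflar, called at a lower adjusted p than Nfkb2, was not among those genes and is not shown. They are from RefSeq on GRCm38.p6, written 5′ to 3′ on the gene's strand, with capitals marking stretches that match the kappaB consensus on either strand. The windows are chr11:54962941-54963190 (minus strand) for Tnip1, chr11:23770970-23771219 (minus strand) for Rel and chr19:46304487-46304736 (plus strand) for Nfkb2. The last is 1 of 3 promoters listed for that gene, taken because its match lay nearest the start.
Tnip1: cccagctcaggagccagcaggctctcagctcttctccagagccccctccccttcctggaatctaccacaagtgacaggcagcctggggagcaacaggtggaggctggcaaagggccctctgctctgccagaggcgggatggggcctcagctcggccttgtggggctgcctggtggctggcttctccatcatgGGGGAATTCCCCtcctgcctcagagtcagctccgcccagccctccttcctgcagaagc
Rel: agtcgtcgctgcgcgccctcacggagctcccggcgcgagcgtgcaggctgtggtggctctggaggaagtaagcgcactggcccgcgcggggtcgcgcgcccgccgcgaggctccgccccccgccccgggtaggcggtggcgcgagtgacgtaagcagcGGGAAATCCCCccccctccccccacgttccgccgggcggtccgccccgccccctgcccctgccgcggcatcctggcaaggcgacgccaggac
Nfkb2: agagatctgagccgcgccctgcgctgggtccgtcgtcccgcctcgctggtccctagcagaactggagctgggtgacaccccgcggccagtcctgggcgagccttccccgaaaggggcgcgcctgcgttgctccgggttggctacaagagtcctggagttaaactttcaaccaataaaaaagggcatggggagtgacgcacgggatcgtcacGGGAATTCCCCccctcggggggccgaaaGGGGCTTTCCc
The capitals begin at -58 in Tnip1, at -92 in Rel and at -39 and -11 in Nfkb2, with -1 the base before the start. Of the 9 NF-kB list genes that rose, 8 had a promoter in the table and 5 of these held a match (Nfkb2, Nfkbie, Rel, Sod2 and Tnip1). By gene, a match was held by 11 of 25 genes of the whole list and 1189 of 11399 tested genes with a promoter. Counted by promoter, of which a gene can have several, it stood in 39.4% of the whole list and in 7.25% of all 32851 promoters. The share was 8.76% of promoters of tested genes, 11.6% of those of the genes that rose and 7.65% of those of the genes that fell. A match describes the letters only.

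In the BCL2 family and survival list, 4 of 22 genes rose (18.2%) and 0 fell, with a median of 0.60 and 19 positive estimates. Bcl2l11 (ENSMUSG00000027381) encodes BIM, a BH3-only protein that promotes apoptosis. It was at 487, 516 and 598 CPM in CGD CD101neg cells, against 217, 232 and 213 CPM in CGD CD101pos cells, 2.42-fold higher (log2 1.27 ± 0.19, adjusted p = 0.00127). The other 3 were Cflar, which encodes the caspase-8 inhibitor c-FLIP and also stands in the NF-kB list (1.02 ± 0.23, adjusted p = 0.0132), the pore-forming effector gene Bak1 (0.96 ± 0.22, 0.0169) and the BH3-only gene Bid (0.90 ± 0.22, 0.0195). The 4 thus include genes that promote and a gene that restrains apoptosis. Mcl1, the main survival factor of neutrophils, had an estimate of 0.26 ± 0.22 (adjusted p = 0.529). The list had 6 calls with the replicate block and 1 with library size scaling, Bcl2l11, where its median was 0.28. It had 1 without CD101neg replicate 2 or 3 and 2 without CD101pos replicate 1 or 2. None was lower at an unadjusted p under 0.05 or by DESeq2.

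Of 42 cytokine and chemokine genes, 4 rose and 4 fell (median 0.63, and 0.31 with library size scaling). With the replicate block 9 rose and 7 fell, by DESeq2 8 and 6, and 11 rose and 6 fell in the fit of the 6 libraries alone. The 4 that rose were Csf3, Il12a, Spp1 and Il1rn. Csf3 (ENSMUSG00000038067), which encodes G-CSF, the growth factor of neutrophils, had 63.0, 74.0 and 59.2 CPM in CGD CD101neg cells and 18.9, 21.6 and 19.0 CPM in CGD CD101pos cells (log2 1.72 ± 0.31, adjusted p = 0.00355). Il12a (ENSMUSG00000027776), the p35 subunit of IL-12, had 79.2, 81.9 and 98.6 CPM in CD101neg and 28.3, 36.2 and 29.8 CPM in CD101pos cells (log2 1.46 ± 0.26, adjusted p = 0.00377). Csf3 and Il12a separated the sorts with a spread of at most 10.5 CPM (SD, n = 3) within a sort. Il12b, which encodes p40, the other chain of IL-12, had an estimate of the opposite sign (-2.61 ± 0.79, adjusted p = 0.0526, and 0.0275 with the block). Tnf had an estimate of 1.70 ± 0.53 (adjusted p = 0.0567, and 0.0282 with the block). Without 1 library, 2 to 4 members rose (2 without CD101pos replicate 2), and 2 fell without CD101neg replicate 1, 2 or 3 or CD101pos replicate 2 or 3.

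The IL-1 and inflammasome list (30 tested) had 2 genes that rose (6.67%, against 3.27% of all genes) and 0 that fell. Both genes that rose encode restraints. Irak3 (ENSMUSG00000020227) encodes IRAK-M, an inhibitor of Toll-like and IL-1 receptor signalling. It was at 231, 324 and 299 CPM in CGD CD101neg cells, against 79.7, 94.0 and 97.6 CPM in CGD CD101pos cells, 3.15-fold higher (log2 1.65 ± 0.20, adjusted p = 0.000203). Il1rn, the IL-1 receptor antagonist, was at 12066, 18645 and 23454 CPM in CD101neg cells, against 5277, 5236 and 6061 CPM in CD101pos cells (log2 1.71 ± 0.49, adjusted p = 0.0437). The call of Il1rn was lost without CD101neg replicate 2 or 3, any CD101pos replicate (largest adjusted p = 0.146), the low-count filter (0.163) and with library size scaling (0.127). The median of the list was 0.09, and -0.23 with library size scaling. The replicate block gave 4 higher and 2 lower genes, adding Irak2, Nlrp1b, Pycard and Nek7. At an unadjusted p under 0.05 there were 2 lower, by DESeq2 1.

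**Figure D3:**
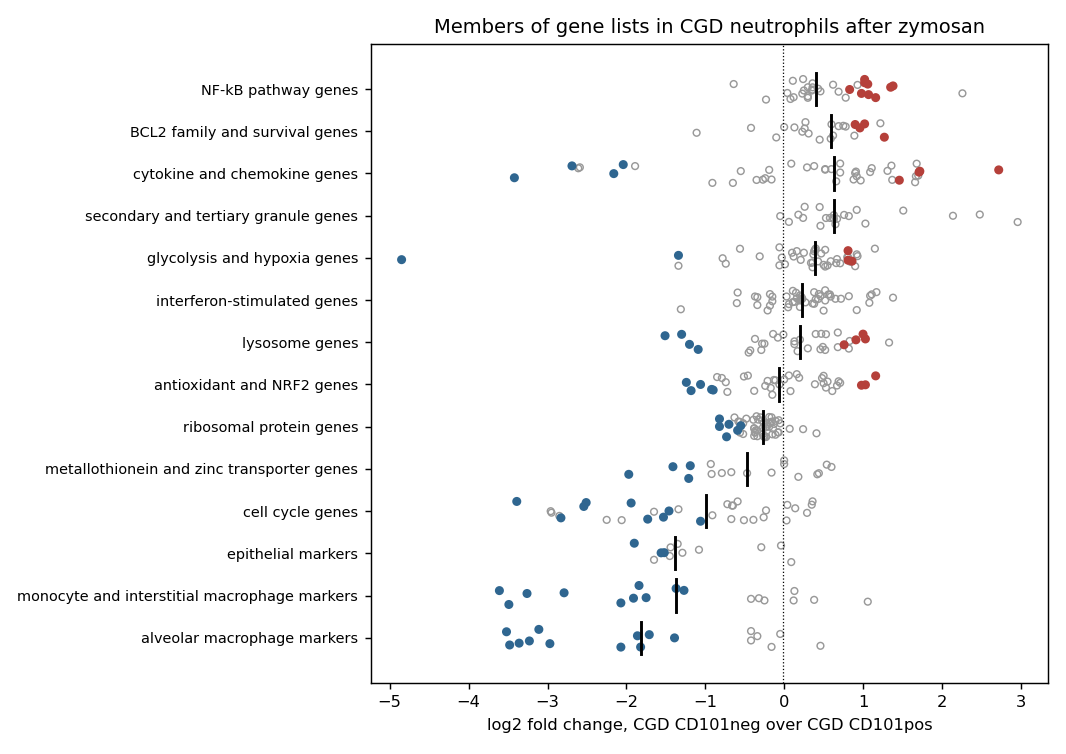
Log2 fold change of CGD CD101neg over CGD CD101pos cells (x axis) for every tested member of 14 gene lists; filled points passed an adjusted p of 0.05, higher (red) or lower (blue), open points did not, thick bars are list medians and the dotted line is the median of all genes (-0.02). The NF-kB and BCL2 lists hold filled points on the right only, and the cell cycle, metallothionein and macrophage lists on the left only.

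Of 20 maturation surface genes 1 rose and 2 fell, Cd101 itself among those that fell (median 0.01). Itga4 (ENSMUSG00000027009), the α4 integrin subunit, had 16.4, 11 and 11.2 CPM in CGD CD101neg cells and 32.2, 32.9 and 31.5 CPM in CGD CD101pos cells (log2 -1.32 ± 0.23, adjusted p = 0.00264). Ceacam1, an adhesion molecule of the carcinoembryonic antigen family, had 101, 132 and 166 CPM in CD101neg and 59.3, 66.2 and 74.8 CPM in CD101pos cells (log2 1.00 ± 0.20, adjusted p = 0.00663), and missed the threshold with library size scaling (0.0678). The primary granule list had 1 call of 11, Ctsc, the protease that activates granule serine proteases (0.64 ± 0.19, adjusted p = 0.0491). It was lost without any 1 of the 6 libraries (largest adjusted p = 0.191). The replicate block called 2 further members lower, the serine protease genes Prtn3 (-0.96 ± 0.48, adjusted p = 0.015 with the block and 0.238 without) and Prss57 (-1.10 ± 0.49, 0.0033 and 0.186).

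Secondary and tertiary granule genes had a median of 0.63 (0.33 with library size scaling) with 21 of 22 estimates positive, but edgeR called 0 of the 22 in either direction, with or without the replicate block. At an unadjusted p under 0.05 there were 1 higher and 0 lower, and DESeq2 called 0. Ltf, lactoferrin, had 706, 285 and 178 CPM in CGD CD101neg cells and 87.5, 67.4 and 54.3 CPM in CGD CD101pos cells (log2 2.48 ± 0.99, adjusted p = 0.146). Camp, the cathelicidin precursor, had 93.1, 20.6 and 10.8 CPM in CD101neg and 12.2, 1.92 and 1.91 CPM in CD101pos cells (log2 2.96 ± 1.41, adjusted p = 0.229). For Ltf the sorts did not overlap. For Camp, CD101pos replicate 1 lay above CD101neg replicate 3, but within each replicate number the CD101neg library was the higher for both genes. Fitted on the 6 libraries alone, Ltf passed (adjusted p = 0.0141). For Ltf and Camp replicate 1 was the highest of each sort. The mean log2 CPM of the list was 10.66, 9.90 and 9.33 in CGD CD101neg libraries and 9.70, 9.12 and 8.72 in CGD CD101pos libraries, higher in CD101neg cells within each number. The adjusted p with the block was 0.218 for Ltf and 0.072 for Camp.

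Of 20 granulopoiesis transcription factors, 2 rose and 0 fell (median 0.29, and -0.03 with library size scaling). They were Relb and Cebpe, the C/EBPε of granule gene expression, at 7.67, 16.2 and 18.9 CPM in CGD CD101neg and 6.02, 6.66 and 7.05 CPM in CGD CD101pos cells (log2 1.12 ± 0.29, adjusted p = 0.029). The call of Cebpe was lost without CD101neg replicate 2 or 3 or any CD101pos replicate (largest adjusted p = 0.144), with library size scaling (0.183) and in the fit of the 6 libraries alone (0.0549). Lower genes numbered 3 at an unadjusted p under 0.05 and 1 by DESeq2. The block gave 3 higher and 1 lower. Of 10 NADPH oxidase genes 2 rose, Rap1a (0.54 ± 0.15, adjusted p = 0.033), a small GTPase, and Ncf1, the organiser p47phox, whose reads may be shared with close copies. Ncf1 had 704, 763 and 976 CPM in CGD CD101neg and 373, 421 and 480 CPM in CGD CD101pos cells (log2 0.94 ± 0.27, adjusted p = 0.0416), and its call was lost without any 1 of the 6 libraries (largest adjusted p = 0.157). That of Rap1a was lost without any 1 but CD101pos replicate 1 (0.14). With the replicate block Cybb (log2 0.47 ± 0.18, adjusted p = 0.121 without it and 0.0313 with it) and Cyba, p22phox, joined them.

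The genes with the largest decreases included many that mark macrophages. Of 17 alveolar macrophage markers 11 fell and 0 rose (median -1.82), and of 17 monocyte and interstitial macrophage markers 10 fell and 0 rose (median -1.37). None of either list was higher at an unadjusted p under 0.05 or by DESeq2. The most abundant members did not pass: Chil3 (-0.05 ± 0.39), Abcg1 (-0.16 ± 0.24) and Car4 (-0.42 ± 0.36) of the alveolar list, and Ly6c2 (1.06 ± 0.58), Cd68 (0.13 ± 0.18) and Csf1r (0.12 ± 0.19) of the other, at adjusted p of 0.291 to 0.956. In bulk samples fewer cells of a type and less RNA per cell cannot be told apart.

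C1qa (ENSMUSG00000036887), a chain of the complement initiator C1q, had 2.78, 2.91 and 2.06 CPM in CGD CD101neg cells, against 23.4, 23.4 and 40.6 CPM in CGD CD101pos cells. It was 11.3-fold lower in CD101neg cells (log2 -3.49 ± 0.34, adjusted p = 6.29e-05). C1qb had 9.39, 12.4 and 10.2 CPM in CD101neg and 81.6, 94.9 and 130 CPM in CD101pos cells (log2 -3.26 ± 0.37, adjusted p = 0.000128). The estimates of the C1q chains lay close together, that of C1qc at -3.61 ± 0.41, and no CD101neg library reached the CD101pos level. Cd163 (ENSMUSG00000008845), the haemoglobin scavenger receptor of macrophages, had 0.663, 0.590 and 0.976 CPM in CGD CD101neg cells, against 8.44, 20.8 and 26.8 CPM in CGD CD101pos cells (log2 -4.65 ± 0.55, adjusted p = 0.000189). Mrc1, the mannose receptor CD206, had 2.80, 3.81 and 2.18 CPM in CD101neg and 17.5, 31.8 and 49.0 CPM in CD101pos cells (log2 -3.48 ± 0.38, adjusted p = 0.000128). Marco, a scavenger receptor of alveolar macrophages, had 5.95, 4.86 and 3.97 CPM in CD101neg and 20.0, 36.5 and 70.7 CPM in CD101pos cells (log2 -3.11 ± 0.51, adjusted p = 0.00229). For Cd163, Mrc1 and Marco CD101pos replicate 3 was the highest library and CD101pos replicate 1 the lowest of its sort, still above every CD101neg library. The scavenger receptor-like gene Fcrls (-4.47), the lectin gene Mgl2 (-3.35), the keratin gene Krt79 (-3.36) and the ribonuclease gene Ear1 (-3.23) were also among the 12 largest decreases, and reads of Ear1 may be shared with its close relative Ear2.

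The summed level of the alveolar macrophage list was 2496 to 3569 CPM in CGD CD101neg libraries and 3203 to 3699 CPM in CGD CD101pos libraries. Most of it came from Chil3 (2163, 2340 and 1298 CPM in CD101neg, 2011, 2333 and 1672 CPM in CD101pos cells), which neutrophils also express and whose reads may be shared with close copies. That of the monocyte and interstitial macrophage list was 1377 to 1493 CPM in CD101neg and 1502 to 1798 CPM in CD101pos libraries. In WT cells these sums were 1434 to 2155 CPM (CD101neg) and 1311 to 1766 CPM (CD101pos) for the alveolar list, and 1570 to 1848 CPM (CD101neg) and 1427 to 1704 CPM (CD101pos) for the other. No gene of either list was at 0 in all 6 CGD libraries. With 1 library left out, 6 to 11 alveolar markers fell, with 6 calls without CD101neg replicate 2 or 3 and 7 without CD101pos replicate 3, and 7 to 10 monocyte and interstitial macrophage markers fell. Of 57 named genes that fell, 31 stayed past the threshold with any 1 CGD library left out and under every other setting run.

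Some chemokine genes fell, Ccl8 and Cxcl13 among the largest decreases and Ccl7, Ccl12 and Ccl17 in the cytokine and chemokine list, where 4 of 42 genes fell and 4 rose. Ccl8 (ENSMUSG00000009185), a chemokine for monocytes, had 0.541, 0.834 and 0.0454 CPM in CGD CD101neg cells, against 13.2, 11.7 and 12.9 CPM in CGD CD101pos cells, 26.3-fold lower in CD101neg cells (log2 -4.72 ± 0.65, adjusted p = 0.000786). Cxcl13, the B cell chemoattractant, had 4.50, 13.2 and 5.20 CPM in CD101neg and 87.6, 67.3 and 85.8 CPM in CD101pos cells (log2 -3.39 ± 0.49, adjusted p = 0.00101). Ccl7 (-2.69 ± 0.39, adjusted p = 0.00084) and Ccl12 (-3.42 ± 0.52, adjusted p = 0.00127), further ligands of monocytes, fell too, and Ccl17 and Il33 were the other 2 genes of that list that fell. Of 21 chemoattractant receptor genes 3 fell and 0 rose, among them C3ar1 for the complement fragment C3a and Ccr7 of migrating dendritic cells. There 2 genes were higher at an unadjusted p under 0.05 and 0 by DESeq2. The replicate block called 4 lower and 3 higher, and the 3 higher genes did not pass without it. They were the formyl peptide receptor genes Fpr1 (0.79 ± 0.44 without the block, adjusted p = 0.0399 with it) and Fpr2 (0.76 ± 0.34, 0.02) and Gpr84 (0.88 ± 0.37, 0.011). The part of macrophage transcripts in the lower chemokine and receptor genes was not tested.

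**Figure D4:**
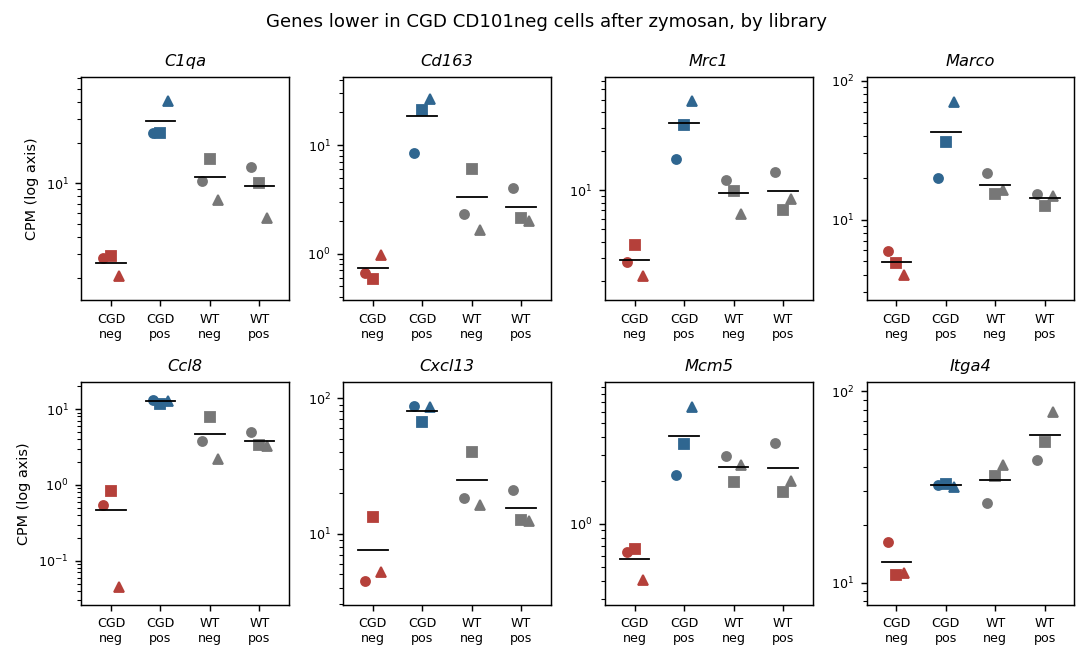
CPM (log axis) of 8 genes that fell, in the 3 libraries of each zymosan group from CGD CD101neg on the left to WT CD101pos on the right; circles, squares and triangles are replicates 1, 2 and 3, and bars are means. Every CGD CD101neg library lies below every CGD CD101pos library, which was required for C1qa, Cd163, Mrc1, Ccl8 and Cxcl13 to be named. For these and Mcm5 the WT sorts overlap.

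Markers of other cells were lower or did not pass. Of 12 epithelial markers 3 fell (Krt8, Ager and Cdh1) and 0 rose (median -1.39), and their summed level was 382 to 719 CPM in CGD CD101neg and 1226 to 1449 CPM in CGD CD101pos libraries. Ager, of alveolar type I cells, had 80.8, 83.1 and 48.8 CPM in CD101neg and 206, 291 and 295 CPM in CD101pos cells (log2 -1.90 ± 0.49, adjusted p = 0.0282), lost without CD101neg replicate 2 or 3 or CD101pos replicate 2 or 3 (largest adjusted p = 0.12). The replicate block called 7 epithelial markers lower, and leaving out CD101neg replicate 1 called 6, leaving out CD101neg replicate 2 called 1, and leaving out CD101neg replicate 3 or CD101pos replicate 2 or 3 called 0. Of the dendritic cell markers 3 of 10 fell (Ccr7, Cd209a and Siglech; 4 with the block), of T and NK cell markers 1 of 15 (Cd4), of fibroblast markers 1 of 11 (Col3a1) and of platelet markers 1 of 7. The T and NK cell count was 3 without CD101neg replicate 1 and 0 without any other of the 6 libraries. The fibroblast count was 2 with the block and 0 without CD101neg replicate 2 or 3 or CD101pos replicate 2 or 3, with RLE factors or in the fit of the 6 libraries alone. The platelet marker was Pf4 (ENSMUSG00000029373), platelet factor 4, with 7.17, 5.11 and 3.04 CPM in CGD CD101neg and 28.2, 25.6 and 29.9 CPM in CGD CD101pos cells (log2 -2.45 ± 0.38, adjusted p = 0.00127). The eosinophil, basophil and mast cell, B cell, endothelial and erythroid lists had 0 calls in edgeR and in DESeq2, with 1, 0, 2, 1 and 0 genes lower and 0 higher at an unadjusted p under 0.05. The block called 1 eosinophil marker lower, the eotaxin receptor gene Ccr3 (log2 -1 ± 0.36, adjusted p = 0.0313 with the block and 0.0994 without), and 1 B cell marker, Ighm (-0.61 ± 0.22, 0.0217 and 0.108). In the fit of the 6 libraries alone 1 eosinophil marker was lower. No member of the lists of other cells rose in edgeR or DESeq2, and 1 T and NK cell marker was higher at an unadjusted p under 0.05.

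Of 32 cell cycle genes 9 fell and 0 rose (median -0.99), with 0 higher at an unadjusted p under 0.05 or by DESeq2. The 9 were Mcm5, Mcm6, Mcm2 and Mcm3 of the replicative helicase, Rrm2 and Rrm1 of ribonucleotide reductase, Tk1 of nucleotide salvage, Birc5 of mitosis and Stmn1 of microtubules. The summed level of the list overlapped between the sorts, at 457 to 579 CPM in CGD CD101neg and 506 to 592 CPM in CGD CD101pos libraries. Mcm5 (ENSMUSG00000005410) had 0.639, 0.671 and 0.408 CPM in CGD CD101neg cells, against 2.17, 3.57 and 6.50 CPM in CGD CD101pos cells (log2 -2.83 ± 0.40, adjusted p = 0.000786). Rrm2 had 0.983, 0.387 and 0.681 CPM in CD101neg and 4.16, 3.38 and 4.33 CPM in CD101pos cells (log2 -2.54 ± 0.39, adjusted p = 0.00127). The sorts did not overlap for Mcm5 or Rrm2. The mitotic genes Mki67 (0.35 ± 0.49, adjusted p = 0.717) and Top2a (-0.59 ± 0.47, 0.485) did not pass. With 1 library left out 3 to 9 members fell, 3 without CD101pos replicate 3, 4 without CD101neg replicate 2 and 5 without CD101neg replicate 3. In the same cells 11 of 17 alveolar macrophage and 10 of 17 monocyte and interstitial macrophage markers fell, and their part in the lower cell cycle genes was not tested.

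Of 17 metallothionein and zinc transporter genes 4 fell and 0 rose (median -0.47), with 2 higher at an unadjusted p under 0.05 and 0 by DESeq2. Metallothioneins are small cysteine-rich proteins that bind zinc and are induced by metals and inflammation. Mt1 (ENSMUSG00000031765) had 222, 125 and 88.1 CPM in CGD CD101neg cells, against 493, 309 and 191 CPM in CGD CD101pos cells (log2 -1.19 ± 0.33, adjusted p = 0.0368). Mt2 (ENSMUSG00000031762) had 21.1, 14.4 and 10.5 CPM in CD101neg and 37.4, 38.4 and 30.7 CPM in CD101pos cells (log2 -1.21 ± 0.29, adjusted p = 0.0185). For Mt1 the highest CD101neg library lay above the lowest CD101pos library, but within each replicate number the CD101neg library was the lower, and with the replicate block the adjusted p was 0.000103. For Mt2 the sorts did not overlap. Slc39a8, the zinc importer ZIP8, fell by 1.97 ± 0.41 on the log2 scale (adjusted p = 0.00949), and Slc39a10 was the last of the 4. The list had 1 call without CD101neg replicate 2 or 3 or CD101pos replicate 2 and 2 in the fit of the 6 libraries alone. Without 1 library Mt1 reached an adjusted p of 0.153 and Mt2 of 0.0923, each lost without CD101neg replicate 2 or 3 or CD101pos replicate 2, and Mt1 also without CD101pos replicate 1.

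The same window before the start is shown for both metallothionein genes because they fell side by side and the metal response element, bound by the metal-sensing factor MTF-1, is known there. Capitals mark the core of that element, TGCACNC or TGCGCNC on either strand, in chr8:94178839-94179088 (plus strand) for Mt1 and chr8:94172368-94172617 (plus strand) for Mt2, from RefSeq on GRCm38.p6.
Mt1: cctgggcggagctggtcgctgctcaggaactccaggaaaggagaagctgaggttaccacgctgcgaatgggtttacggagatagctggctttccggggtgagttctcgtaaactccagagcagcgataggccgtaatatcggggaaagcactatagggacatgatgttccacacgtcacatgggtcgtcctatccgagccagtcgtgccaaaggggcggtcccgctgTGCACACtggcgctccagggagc
Mt2: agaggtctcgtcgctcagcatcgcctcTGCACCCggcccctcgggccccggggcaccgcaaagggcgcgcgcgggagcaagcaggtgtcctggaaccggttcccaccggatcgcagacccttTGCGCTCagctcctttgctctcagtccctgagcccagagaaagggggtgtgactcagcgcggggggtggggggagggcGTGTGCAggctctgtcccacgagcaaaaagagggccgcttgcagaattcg
The core began at -23 in Mt1 and at -223, -128 and -50 in Mt2. It stood in 21.4% of all promoters, 28.2% of those of tested genes, 27.8% of those of the genes that rose and 27.7% of those of the genes that fell.

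Antioxidant genes moved in both directions. Of 37 antioxidant and NRF2 genes 3 rose (Sod2, Sqstm1 and Prdx5) and 5 fell, Cat, Blvrb, Prdx4, Prdx2 and Prdx1 (median -0.06). These were 8.11% and 13.5% of the list. The replicate block gave 8 and 8. Cat (ENSMUSG00000027187), catalase, had 11.8, 6.55 and 8.01 CPM in CGD CD101neg cells, against 19.4, 17.6 and 22.8 CPM in CGD CD101pos cells (log2 -1.18 ± 0.21, adjusted p = 0.00384). Blvrb, biliverdin reductase B, had 5.77, 5.58 and 4.72 CPM in CD101neg and 11.7, 9.60 and 12.1 CPM in CD101pos cells (log2 -1.06 ± 0.22, adjusted p = 0.0084). For Cat and Blvrb the sorts did not overlap, and the calls held with any 1 library left out. Without CD101neg replicate 2 or 3 or CD101pos replicate 2 or 3, 0 members rose and 2 fell, and 2 and 1 rose without CD101neg replicate 1 and CD101pos replicate 1.

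Of 33 lysosome genes 4 rose (Psap, Gla and Atp6v0c among them) and 4 fell (Ctss, Ctsa, Lgmn and Glb1), with a median of 0.20 (-0.12 with library size scaling, against -0.34 for all genes). Each direction held 12.1% of the list. The replicate block gave 7 and 5. Ctss, cathepsin S, had 225, 155 and 245 CPM in CGD CD101neg cells, against 584, 400 and 449 CPM in CGD CD101pos cells (log2 -1.20 ± 0.22, adjusted p = 0.00457). Ctsa, the protective protein of lysosomal hydrolases, had 255, 177 and 128 CPM in CD101neg and 552, 440 and 385 CPM in CD101pos cells (log2 -1.30 ± 0.26, adjusted p = 0.00734). Lgmn, the protease legumain, fell by 1.51 ± 0.32 on the log2 scale (adjusted p = 0.0094). Psap, prosaposin, had 1736, 1698 and 1867 CPM in CD101neg and 1076, 704 and 879 CPM in CD101pos cells (log2 1.00 ± 0.25, adjusted p = 0.0229). The calls of Ctss, Ctsa and Lgmn held without any 1 library, whereas 0 of the 4 that rose passed without CD101neg replicate 2 or 3 or CD101pos replicate 2 or 3, and 2 without CD101pos replicate 1. Scaled by library size alone 0 rose.

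Genes of iron handling and lipid mediators held a few firm calls. Slc25a37, the mitochondrial iron importer mitoferrin-1, had 74.5, 78.4 and 97.3 CPM in CGD CD101neg cells, against 25.9, 31.6 and 35.7 CPM in CGD CD101pos cells (log2 1.42 ± 0.24, adjusted p = 0.00269). In the iron list 2 of 17 rose (11.8%) and 3 fell (17.6%), and Aco1, the iron-sensing aconitase IRP1, was among those that fell (-1.45 ± 0.26, adjusted p = 0.00355). With the block 4 rose and 4 fell. Without CD101neg replicate 2 or 3 or any CD101pos replicate 1 rose, and without CD101neg replicate 2 1 fell. Of 21 leukotriene and prostanoid genes 1 rose and 2 fell. Ptger2, the prostaglandin E2 receptor EP2, had 49.5, 82.0 and 107 CPM in CD101neg and 30.9, 35.8 and 31.5 CPM in CD101pos cells (log2 1.28 ± 0.24, adjusted p = 0.00452). Ltc4s, leukotriene C4 synthase, had 1.79, 2.08 and 1.02 CPM in CD101neg and 6.37, 6.57 and 6.33 CPM in CD101pos cells (log2 -1.98 ± 0.38, adjusted p = 0.00585), and Tbxas1, thromboxane synthase, was the other that fell. Tbxas1 (adjusted p = 0.0173) was lost without CD101neg replicate 2 or 3 or CD101pos replicate 3 (largest adjusted p = 0.0967). The block called 5 lower.

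Of 37 fungal and microbial recognition genes 2 rose, Tlr2 (0.68 ± 0.19, adjusted p = 0.038) and Malt1 (1.27 ± 0.37, 0.0426), and 3 fell, Marco, Msr1 and Cd36. Malt1, the paracaspase downstream of Dectin-1, had 54.7, 53.2 and 59.1 CPM in CGD CD101neg and 21.4, 25.4 and 22.3 CPM in CGD CD101pos cells, a tight separation. Its call was nevertheless lost without any 1 of the 6 libraries (largest adjusted p = 0.128), and that of Tlr2 without any 1 but CD101pos replicate 1 (0.155). Both calls were also lost with library size scaling (0.253 for Tlr2 and 0.169 for Malt1) and without the low-count filter (0.0894 and 0.126). The block called 7 higher. Of the 3 that fell, 1 passed without any CD101neg replicate or CD101pos replicate 2 or 3. They are scavenger receptors, Marco being also on the alveolar macrophage list, and the part of macrophage transcripts in them was not tested.

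Glycolysis and hypoxia genes had a median of 0.39 (0.07 with library size scaling), and 3 of 43 rose (6.98%, Pfkp, Hk1 and Pgam1) and 2 fell (4.65%, Car9 and Aldoc). Under the replicate block 12 rose and 3 fell, the added ones including Aldoa (adjusted p = 0.0066 with the block and 0.055 without), Gapdh (0.0222 and 0.161) and Pkm (0.0464 and 0.181). Without 1 library 6 rose when CD101neg replicate 1 was left out, and 0 or 1 when any other was. Pfkp, platelet-type phosphofructokinase, had 206, 257 and 341 CPM in CGD CD101neg and 163, 141 and 137 CPM in CGD CD101pos cells (log2 0.86 ± 0.19, adjusted p = 0.0118). That call was lost without CD101neg replicate 3 or CD101pos replicate 2 or 3 (largest adjusted p = 0.0789) and with library size scaling (0.0664). Of 53 ribosomal protein genes 6 fell (11.3%) and 0 rose (median -0.27), with 3 of 53 estimates positive. There were 17 lower with the block, 29 with library size scaling, 10 without CD101neg replicate 1, 0 without CD101neg replicate 2 or 3, 1 without CD101pos replicate 2 and 2 without CD101pos replicate 1 or 3. None was higher at an unadjusted p under 0.05 or by DESeq2. Of respiratory chain genes 1 of 45 nuclear genes fell, Ndufa9, and 1 of 13 mitochondrially encoded genes, mt-Nd1. Both calls were lost without any 1 library but CD101neg replicate 1 (largest adjusted p = 0.166 and 0.14). The counts were 4 and 2 with the block and 7 and 3 with library size scaling.

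Interferon-stimulated genes were not called in either direction by edgeR, 0 of 49, with 1 higher and 1 lower at an unadjusted p under 0.05 and 0 by DESeq2. Their median was 0.22 (-0.14 with library size scaling, against -0.34 for all genes). With the replicate block 7 rose and 1 fell, the antiviral gene Rsad2 among those that rose (adjusted p = 0.00479 with the block and 0.285 without). Their summed level was 5801 to 16302 CPM in CGD CD101neg libraries and 5312 to 11148 CPM in CGD CD101pos libraries, and these ranges overlapped. Ifi47, an interferon-inducible GTPase, had 174, 315 and 1043 CPM in CD101neg and 144, 175 and 406 CPM in CD101pos cells, with replicate 3 the highest of each sort.

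The remaining lists are given beside the 3.27% of all genes called higher and 4.08% called lower. Higher and lower calls made up 3.33% and 13.3% of unfolded protein and stress response genes, and 8.33% and 4.17% of integrin and adhesion genes. The shares were 6.67% and 0% for immediate early genes, 4.17% and 0% for TNF superfamily genes and 9.09% and 6.06% for SOCS and STAT genes. For MHC genes they were 0% and 8.7%, and for arginine, polyamine and itaconate genes 0% and 6.67%. Of 30 unfolded protein and stress response genes 1 rose, Ddit3, and 4 fell, Sdf2l1, Dnajc3, Pdia4 and Xbp1, of which Sdf2l1 of the endoplasmic reticulum fell by 1.75 ± 0.33 on the log2 scale (adjusted p = 0.00496). Sdf2l1 alone of the 4 passed without CD101neg replicate 2 or 3 or CD101pos replicate 2 or 3. Of 30 immediate early genes 2 rose, Dusp5 and Nr4a2, and of 24 integrin and adhesion genes 2 rose, Ceacam1 and Itgav, and 1 fell, Itga4. Of 24 TNF superfamily genes 1 rose, Fas, and of 33 SOCS and STAT genes 3 rose, Tyk2, Ifnar1 and Ifngr2, and 2 fell, Lifr and Il4ra. Of 23 MHC genes 2 fell, H2-DMa and H2-DMb1, and of 15 arginine, polyamine and itaconate genes 1 fell, the arginine transporter gene Slc7a2. Heat shock and Fc gamma receptor genes had 0 calls of 18 and of 14 by edgeR, with 0 and 1 higher and 4 and 0 lower at an unadjusted p under 0.05, and DESeq2 called 1 heat shock gene lower and 1 Fc gamma receptor list gene higher. With the block 5 heat shock genes fell and 1 Fc gamma receptor list gene rose. The block gave 6 higher and 3 lower integrin and adhesion genes, 5 and 1 immediate early genes, 4 and 2 TNF superfamily genes, 5 and 4 SOCS and STAT genes, 2 and 3 MHC genes, and 2 and 4 unfolded protein and stress response genes. Apart from Ceacam1, Itga4, Lifr and Sdf2l1, the named calls of these lists were lost when some 1 library was left out, at largest adjusted p of 0.0554 to 0.236.

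Between WT sorts the same test called 73 genes (0.44%), 68 higher (0.41%) and 5 lower (0.0302%) in CD101neg cells. Of these 21 were higher in both genotypes, 3.87% of the CGD list and 30.9% of the WT list, and 4 were lower in both, 0.592% and 80%. Genes lower in CGD and higher in WT numbered 3, and genes higher in CGD and lower in WT 0. The WT count moved between 3 and 400 with 1 WT library left out (3 without CD101pos replicate 3 and 400 without CD101neg replicate 2) and was 748 with the replicate block. These counts alone do not show that the genotypes differ, and the interaction tests that.

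The interaction, the CD101neg minus CD101pos difference of CGD cells less that of WT cells, was called for 141 genes (0.851%), 30 positive (0.181%) and 111 negative (0.67%). Of the 141, 129 were also called between the CGD sorts: 30 that rose there with a positive interaction and 99 that fell there with a negative one. Under the replicate block 1048 genes passed. Leaving out 1 library gave 43 to 497, namely 43, 45, 47, 51, 59, 59, 82 and 85 without CGD CD101pos replicate 3, WT CD101pos replicate 3, CGD CD101neg replicate 2, WT CD101neg replicate 1, CGD CD101neg replicate 3, WT CD101pos replicate 2, CGD CD101pos replicate 2 and WT CD101neg replicate 3. It gave 234 without WT CD101neg replicate 2 and 497 without WT CD101pos replicate 1.

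Macrophage genes were among the negative calls, beside others such as Cat, Blvrb and Mcm5. C1qa had 10.4, 15.2 and 7.57 CPM in WT CD101neg cells and 13.2, 10 and 5.55 CPM in WT CD101pos cells, which overlap, and its interaction was -3.70 ± 0.45 (adjusted p = 0.001). Both WT sorts lay between the CGD sorts, above CGD CD101neg cells (2.06 to 2.91 CPM) and below CGD CD101pos cells (23.4 to 40.6 CPM). The same order held for Ccl8 (WT CD101neg 3.78, 7.96 and 2.20 CPM, WT CD101pos 4.92, 3.32 and 3.27 CPM, interaction -4.99 ± 0.83, adjusted p = 0.00769). It held for Cd163 (WT CD101neg 2.32, 6.03 and 1.64 CPM, WT CD101pos 3.98, 2.15 and 2.01 CPM, interaction -4.94 ± 0.71, adjusted p = 0.00307). For Cxcl13 the interaction was -4.08 ± 0.66 (adjusted p = 0.00724). Of the marker lists, 4 of 17 alveolar macrophage genes and 8 of 17 monocyte and interstitial macrophage genes were called, all negative. The part of macrophage transcripts in the 111 negative calls was not tested.

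Cat and Blvrb were also called. Blvrb had 24.5, 26.9 and 47.4 CPM in WT CD101neg cells and 11.9, 13.7 and 11.9 CPM in WT CD101pos cells, so it rose in WT CD101neg cells (log2 1.39, adjusted p = 0.00609) and fell in CGD CD101neg cells (interaction -2.45 ± 0.31, adjusted p = 0.0011). Cat had 27.4, 26.6 and 33.3 CPM in WT CD101neg and 24.3, 15.8 and 18.1 CPM in WT CD101pos cells (interaction -1.77 ± 0.30, adjusted p = 0.0078). Of the antioxidant and NRF2 list 10 genes rose and 0 fell in WT CD101neg cells, and 5 genes had a called interaction, all negative. Prdx1, peroxiredoxin 1, chosen after its values were seen, had a log2 fold change of -0.90 in CGD cells and an interaction of -2.90 (adjusted p = 0.000968).

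On the positive side, Il12a had 8.50, 9.70 and 8.72 CPM in WT CD101neg cells and 8.25, 11.8 and 11.4 CPM in WT CD101pos cells, and its interaction was 1.69 ± 0.37 (adjusted p = 0.0382). Irak3 had 53.4, 41.5 and 57.5 CPM in WT CD101neg and 36.1, 37.6 and 49.5 CPM in WT CD101pos cells (interaction 1.35 ± 0.28, adjusted p = 0.0239). In both the WT sorts overlapped, and every CGD library was above every WT library. Plekhn1 had the largest positive interaction of the named genes, 2.49 ± 0.53 (adjusted p = 0.0311). Slc44a1 (2.15 ± 0.40), Hspa4l (1.64 ± 0.33), Tsc22d4 (1.53 ± 0.29) and Plagl2 (1.45 ± 0.33) were called at adjusted p between 0.0145 and 0.0467. Spp1 (1.4 ± 0.77, adjusted p = 0.42), Adora2b (0.69 ± 0.58, 0.611), Dock10 (0.56 ± 0.63, 0.713) and Csf3 (1.32 ± 0.43, 0.153) were not called in this unpaired fit. A difference between genotypes in their subset difference was thus not shown by it, and their values with the replicate block are not given. Of 32 named genes with a called interaction, 11 kept it under all 18 alternatives run (Blvrb, C1qa, C1qb, C1qc, Cat, Ccl7, Ccl8, Cd163, Cxcl13, Fcrls and Mrc1). The positive ones, Il12a, Irak3, Plekhn1, Slc44a1, Hspa4l, Tsc22d4 and Plagl2, were each lost without CGD CD101neg replicate 2, among other settings, with largest adjusted p of 0.0664 to 0.246.

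**Figure D5:**
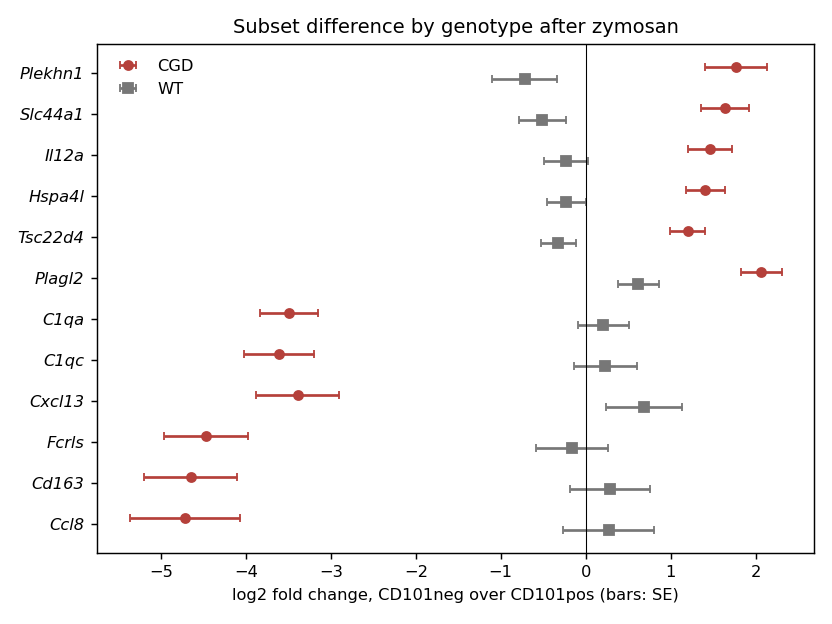
Log2 fold change of CD101neg over CD101pos cells (x axis, bars are SE) in CGD cells (red circles) and WT cells (grey squares) for the 6 genes with the largest called interaction in each direction and a mean of at least 10 CPM in a zymosan group. The CGD estimates of the upper 6 genes are positive and those of the lower 6 between -3.39 and -4.72, while the WT estimates lie between -0.72 and 0.69.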

How the data were processed

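The deposited values are raw counts of reads per gene, in 1 table of 18 libraries. STAR 2.5.1a was used by the authors upstream of these counts, together with featureCounts 1.4.6-p5 of Subread, per the submitters' processing notes. Per the labels, total RNA of sorted cells was isolated with a column kit and libraries were made with the SMARTer kit. Genome build, annotation and strand setting: not given in the sources used here. Reads of genes that overlap on the 2 strands therefore cannot be separated, and counts of close paralogs (Ear1 and Ear2, Chil3, Ncf1, Hba-a1 and Hba-a2) are uncertain. After 276 of 40757 lines that duplicated another line's ID and counts were dropped, 40481 gene IDs remained.

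Groups came from the labels. Counts were fitted with edgeR 4.0.16 in R 4.3.3 (glmQLFit robust, TMM factors, filterByExpr by group) over all 18 libraries in 6 groups, with 12 residual degrees of freedom, and adjusted by Benjamini-Hochberg over 16575 genes, 13807 of them protein-coding. Libraries held 33.7 to 67.9 M counts, and the common biological coefficient of variation was 33.0%. SE values are the absolute log2 fold change over the root of F. Estimates and SE are of the fit without the replicate block, also where an adjusted p with the block stands beside them. All p-values are from this test unless another is named. On simulated data of 16575 genes, the CGD comparison recovered 13% of 2-fold and 70% of 4-fold changes, and the interaction 2% and 39%, with 3.49% and 2.38% of calls among unchanged genes. The simulation changed 200 genes, drew libraries without pairing and counted genes lost to the filter as not recovered. In the data 1218 genes were called, so these shares may not hold there.

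Same-numbered CD101neg and CD101pos libraries deviated together from their group means over 5704 genes, with correlations of 0.572, 0.207 and 0.667 in CGD and 0.875, 0.855 and 0.687 in WT. Different numbers correlated at -0.594 to -0.00176 in CGD. The number, from the labels, may therefore pair the samples. The main test left it out, so its p-values, the fits with 1 library left out and the interaction values are unpaired. Counts and calls with the replicate block are given beside many of the CGD results. For interactions not called without the block, no blocked value is given.

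Alternatives were RLE factors, library size scaling, no low-count filter, DESeq2 1.42.0, a fit of only the groups compared, the replicate block and each library left out. Those of the WT comparison, and the CGD comparison without each WT library, were chosen after seeing the data. The members and the 31 process and 13 marker lists were chosen with earlier results of these data known. Named genes were the 12 largest called changes in each direction (10 CPM or more where higher, no overlap), up to 4 called members of each process list (2 where none passed), up to 3 of the most abundant genes of each marker list, the 6 largest called interactions in each direction, Cybb and Cd101. Nfkb1, Rela, Nfkbia, Mcl1, Il12b, Tnf, Mki67, Top2a, Aldoa, Gapdh, Pkm, Rsad2, Prdx1, Csf3r, Prtn3, Prss57, Fpr1, Fpr2, Gpr84, Ccr3 and Ighm were chosen after their values were seen. Predicted gene models were left out. A few named genes are not reported here.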

Additional observations from a re-analysis of the deposited data

Results flagged for a closer look

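The test of the interaction itself (edgeR, unpaired, adjusted p under 0.05) called 32 named genes. Of these, 11 kept the call under all 18 alternatives run, and each of the others lost it under some of them. The value given here is the log2 difference between CD101neg and CD101pos cells in CGD mice minus that in WT mice. Among macrophage-associated genes it was -4.94 for Cd163, -4.31 for Fcrls, -3.83 for C1qc, -3.70 for C1qa and -3.59 for C1qb. It was -3.43 for Mrc1, -3.43 for Marco, -3.44 for Mgl2, -3.33 for Ear1 and -2.27 for Msr1. It was -2.53 for the platelet marker Pf4. Among chemokines and chemoattractant receptors it was -4.99 for Ccl8, -4.08 for Cxcl13, -3.68 for Ccl12, -3.40 for Ccl7, -2.63 for C3ar1 and -2.50 for Ccr7.

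Among genes of metabolism and protein handling the interaction was -5.64 for Car9, which had at most 0.0454 CPM in CGD CD101neg and 0.338 to 0.684 CPM in CGD CD101pos libraries. It was -3.10 for Slc7a2, -2.45 for Blvrb, -2.24 for Sdf2l1, -2.18 for Lgmn, -1.77 for Cat and -1.76 for Prdx4. The replication gene Mcm5 was at -2.86. The positive values were 2.49 for Plekhn1, 2.15 for Slc44a1, 1.69 for Il12a, 1.64 for Hspa4l, 1.53 for Tsc22d4, 1.45 for Plagl2 and 1.35 for Irak3. Each of these positive calls was lost without CGD CD101neg replicate 2.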

How the results depend on the processing

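With the replicate block, 2758 genes passed between CGD CD101neg and CD101pos cells (1339 higher and 1419 lower), 1048 in the interaction and 748 between WT sorts. DESeq2 called 2136 (1059 higher and 1077 lower), 589 in the interaction and 329 between WT sorts. Scaled by library size alone 82 were higher and 1163 lower, with 758 of the 1218 calls kept. Without the low-count filter the interaction had 327 calls and the WT comparison 140, and with only the 12 zymosan libraries fitted the interaction had 62. Leaving out each of the 6 CGD libraries gave 321 to 1185 calls between the CGD sorts (122 to 497 higher and 199 to 688 lower), and each WT zymosan library 1071 to 1358. Leaving out each zymosan library gave 43 to 497 in the interaction, and each WT one 3 to 400 between the WT sorts. RLE factors gave 1264 calls, no filter 1184 and the 6 libraries alone 1218, of which 872 were among the 1218 of the 18-library fit. The cause of these shifts was not tested. Apart from the calls given beside the results, the block changed no other call of a named gene to one not past the threshold. No named gene changed direction under any setting run. Groups of 3 limit the calls: in a simulation with fewer changed genes and unpaired libraries, 13% of genes changed 2-fold were recovered. A gene not called is therefore not shown to be alike in both sorts.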
